A study of Mus musculus with 3 samples.

Results

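The genes of oxidative phosphorylation were followed through 3 Drop-seq libraries, each made from the cerebellum of a different Eed cKO mouse at P7. Members were the listed genes whose symbols name subunits of complexes I to V or complex I assembly factors, 100 of the 16181 genes listed. Of these, 92 were encoded in the nucleus and 8 in the mitochondrial genome. The nuclear set held 38 complex I genes, 7 Ndufaf assembly factors, 4 complex II, 8 complex III, 17 complex IV and 18 complex V genes. Genes were placed by symbol, so Ndufa4 and its paralog Ndufa4l2 are counted under complex I, although Ndufa4 is now assigned to complex IV. The mitochondrial set was mt-Nd1, mt-Nd2, mt-Nd3, mt-Nd4, mt-Nd5, mt-Nd6, mt-Cytb and mt-Co1, and the mitochondrial genes mt-Co2, mt-Co3, mt-Atp6, mt-Atp8 and mt-Nd4l were not analysed here, nor were Atp5g2 and Cox8c.

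All 3 mice carried Math1-Cre with floxed Eed alleles (Math1-Cre/Eed fl/fl) and received no treatment, and each library holds cells of 1 mouse, dissociated with papain. Cre in this line is driven from the Math1 (Atoh1) promoter, so deletion is aimed at the Atoh1 lineage, the cerebellar granule neuron progenitors (CGNPs) and granule neurons (CGNs), while vascular, glial and other cells of the same libraries keep intact alleles unless they express Cre. Whether a given cell had lost Eed was not determined. With a single genotype, all comparisons below are between cell groups within these 3 mice, and none is between genotypes. The filtered cells numbered 918, 547 and 908 in mice 1, 2 and 3, with medians of 919.5, 857 and 1408 unique molecular identifiers (UMIs, each a captured RNA molecule) per cell. No barcode was shared between libraries.

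Cells were clustered without the members, and clusters were named from marker genes. Myoid-like cells numbered 27, 20 and 28, and all 16 of their muscle markers (among them Myog, Actc1 and Ttn) were detected, at a summed level of 26966 to 45112 CPM across mice (CPM is the gene's UMIs relative to all UMIs of the cell group, on the counts-per-million scale). Pericyte-like cells numbered 11, 6 and 11, and all 9 of their markers (among them Rgs5, Kcnj8 and Abcc9) were detected, at 21531 to 25394 CPM. Of the 2373 cells, 176 formed a cluster that carried 9 differentiating CGNP/CGN markers, 0 of them among its 10 leading genes, and 4 Purkinje markers, which include its leading gene, Syt4. It was left unnamed and is called by that gene.

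Complexes I to IV of the inner mitochondrial membrane pass electrons from NADH and succinate to oxygen, with complexes I, III and IV pumping protons, and complex V uses the resulting gradient to make ATP. Complex II is wholly encoded in the nucleus, while the others combine nuclear subunits with core subunits made from mitochondrial DNA. Some complex IV subunits come as tissue isoforms: Cox6a2 and Cox8b are the heart and skeletal muscle forms of the more widely used Cox6a1 and Cox8a, and Cox4i2 is a form of Cox4i1 known from lung and from cells that sense oxygen. Ndufa4l2 is a paralog of Ndufa4 known for its induction in hypoxia.

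The start-site regions of the Cox8 pair and of Cox6a1 are shown because Cox8b was called between cell groups, and Cox8a and Cox6a1 are the general forms of the muscle pairs. Each is 300 bases of the RefSeq promoter table (GRCm38.p6), read 5′ to 3′ on the gene's strand from 250 bases before the start site. Capitals mark the E-box CAGCTG (the muscle bHLH core), TATAAA (the letters of a TATA box core), CTTCCG (the ETS core bound by GABPA, an activator of respiratory genes) and the palindromic core of NRF1, another activator of respiratory genes, each searched on both strands. The windows lie at chr7:140900397-140900696, minus strand, for Cox8b; at chr19:7217567-7217866, minus strand, for Cox8a; and at chr5:115348909-115349208, minus strand, for Cox6a1.
Cox8b: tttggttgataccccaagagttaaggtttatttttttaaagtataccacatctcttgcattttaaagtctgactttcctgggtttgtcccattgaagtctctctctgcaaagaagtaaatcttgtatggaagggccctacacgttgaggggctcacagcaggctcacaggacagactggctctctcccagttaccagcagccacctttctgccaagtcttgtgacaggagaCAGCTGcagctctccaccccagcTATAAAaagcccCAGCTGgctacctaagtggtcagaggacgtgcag
Cox8a: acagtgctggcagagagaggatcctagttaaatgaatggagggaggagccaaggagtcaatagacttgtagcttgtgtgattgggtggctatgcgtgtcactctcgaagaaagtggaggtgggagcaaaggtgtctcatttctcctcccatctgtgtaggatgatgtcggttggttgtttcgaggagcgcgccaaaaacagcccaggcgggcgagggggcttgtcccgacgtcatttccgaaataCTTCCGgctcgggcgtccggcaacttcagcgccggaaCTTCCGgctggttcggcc
Cox6a1: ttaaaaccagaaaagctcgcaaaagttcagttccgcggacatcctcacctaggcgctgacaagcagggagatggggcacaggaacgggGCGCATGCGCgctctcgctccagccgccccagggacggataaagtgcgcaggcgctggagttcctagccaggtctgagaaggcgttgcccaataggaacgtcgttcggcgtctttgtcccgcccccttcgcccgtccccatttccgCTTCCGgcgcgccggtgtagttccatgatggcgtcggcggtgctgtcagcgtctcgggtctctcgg

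The Cox8b window held 2 copies of CAGCTG and 1 of TATAAA, and neither CTTCCG nor the NRF1 core. TATAAA began 4 bases past the annotated start site, where a TATA box is known to lie before the start, and the copies of CAGCTG lay on either side of that site. Cox8a held 2 copies of CTTCCG and Cox6a1 held 1 copy each of CTTCCG and the NRF1 core, and neither window held CAGCTG or TATAAA. The windows of Cox7a1, another heart and muscle form, and of Ndufa4 held none of these motifs. Of all 27025 promoters of the table, CAGCTG was in 16.1%, CTTCCG in 17.2%, TATAAA in 14.2% and the NRF1 core in 0.977%. Among the 72 nuclear members with an entry, 6 (8.33%) held CAGCTG, 28 (38.9%) held CTTCCG, 7 (9.72%) held TATAAA and 6 (8.33%) held the NRF1 core. Over the 10441 promoters of genes listed in these data the shares were 15.3%, 30.1%, 7.05% and 2.02% in the same order. Cox6a2 and Ndufa4l2 had no entry. On GRCm38, Cox6a2 lies at chr7:128205435-128206387 and Cox8b at chr7:140898945-140900446, both on the minus strand, and Ndufa4l2 at chr10:127514967-127517154 on the plus strand (GENCODE M21).

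The most abundant nuclear member was Cox6a1 with 1124 ± 137 CPM (mean ± SD, n = 3 mice, all cells), followed by Cox4i1, the general form of the subunit that regulates complex IV, with 1082 ± 138, Atp5j, a subunit of the complex V stalk, with 1003 ± 120, and Ndufa4 with 1002 ± 109. These neighbors did not differ beyond their spread. Complex II genes were lower, from Sdhb, its iron-sulfur subunit, at 381 ± 43.2 to Sdhd, a membrane anchor, at 127 ± 18.7 among its 3 most abundant genes. Of the other genes placed in complex I by symbol, Ndufa12 (797 ± 203) and Ndufc1 (702 ± 111), both accessory subunits, came after Ndufa4. In complex III the leading genes were Uqcrq (659 ± 113), Uqcr11 (594 ± 100) and Uqcr10 (503 ± 82.8). Cox6c, with 957 ± 90.2, came next in complex IV, and Atp5o and Atp5k, with 798 ± 148 and 688 ± 124, in complex V. The assembly factors were sparse, led by Ndufaf2 (144 ± 36.8), Ndufaf4 (82.2 ± 21.2) and Ndufaf3 (44.9 ± 6.29).

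Among the mitochondrial members, mt-Cytb, the complex III cytochrome b, led with 2063 ± 142 and was followed by mt-Nd1 with 1412 ± 139. The other complex I subunits mt-Nd2, mt-Nd5 and mt-Nd4 had 1014 ± 181, 998 ± 244 and 828 ± 37.8, mt-Co1 had 713 ± 80.0 and mt-Nd6 118 ± 47.7. Drop-seq tags the 3′ ends of polyadenylated RNA, so CPM values were not divided by gene length.

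Nuclear members made up 3.12%, 3.65% and 3.09% of all UMIs in mice 1, 2 and 3, and the mitochondrial members 0.760%, 0.677% and 0.709%. Across cell groups the nuclear share was highest in myoid-like cells, at 4.94%, 4.99% and 4.59% in mice 1, 2 and 3. All 3 values lay above every other cell group of the same mouse, and above the 3.22 ± 0.334% of the remaining cells (mean ± SD, n = 3), a difference of 1.62 ± 0.256 percentage points. Pericyte-like cells followed with 4.06%, 4.51% and 3.22%, higher than the remaining cells in 3 of 3 mice, by 0.650 ± 0.447 percentage points. Myeloid-like cells had the lowest mean, 2.72 ± 0.642%, and within it mouse 2 stood apart at 3.45%. The groups in between ran from differentiating CGNP/CGN-like cells at 2.99 ± 0.287% to vascular fibroblast-like cells at 3.54 ± 0.655%. Within mice, oligodendrocyte lineage-like cells were above the remaining cells by 0.229 ± 0.0584 percentage points and proliferating CGNP-like cells by 0.117 ± 0.0784, each in 3 of 3 mice. Interneuron-like, endothelial-like, astrocyte/Bergmann glia-like and differentiating CGNP/CGN-like cells were below the remaining cells in 3 of 3 mice. Vascular fibroblast-like cells were above them in 2 of 3. Mouse 2 had the highest nuclear share in each of the 11 groups shown, so groups were compared within mice.

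**Figure D1:**
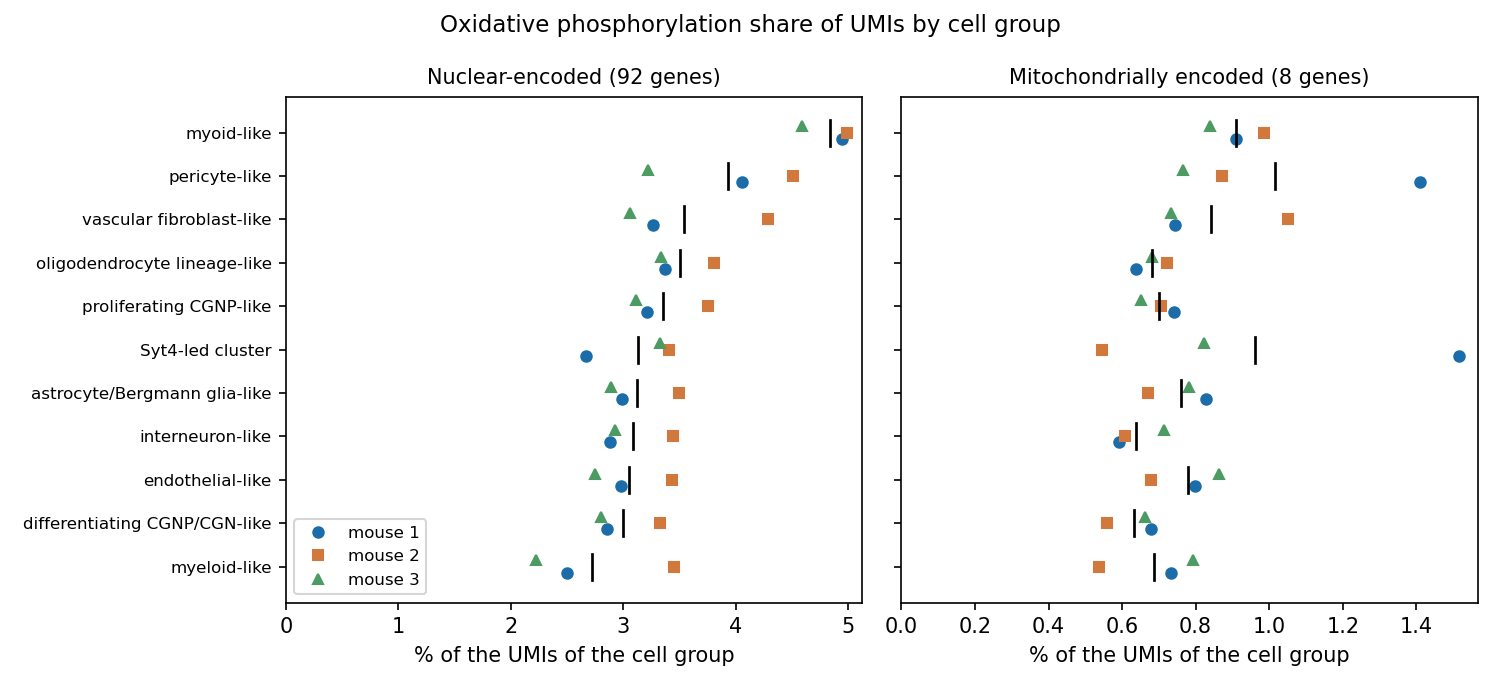
Share of all UMIs of a cell group that came from the 92 nuclear members (left) and the 8 mitochondrial members (right), in percent, for each of 11 cell groups. Points are mice (blue circle 1, orange square 2, green triangle 3) and vertical ticks the mean of 3 mice; the 3 myoid-like points on the left sit between 4.59% and 4.99%.

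The mitochondrial share was ordered differently. Myoid-like cells had 0.908%, 0.985% and 0.838%, above the remaining cells of the same mouse in 3 of 3 mice, by 0.203 ± 0.101 percentage points. Pericyte-like cells had 1.41%, 0.871% and 0.766%, and the Syt4-led cluster 1.52%, 0.546% and 0.822%, so in both groups mouse 1 stood far above the other two. Pericyte-like cells were above the remaining cells in 3 of 3 mice, by 0.303 ± 0.313 percentage points, with 0.755%, 0.675% and 0.709% in those remaining cells. Endothelial-like cells had 0.798%, 0.678% and 0.863% beside 0.759%, 0.677% and 0.707%, so mouse 2 was level and mouse 3 lay furthest apart. Differentiating CGNP/CGN-like cells were below the remaining cells in 3 of 3 mice for both shares, with 2.99 ± 0.287% nuclear and 0.633 ± 0.0645% mitochondrial. Set against each other, there were 0.188 ± 0.00827 mitochondrial UMIs for each nuclear UMI in myoid-like cells and 0.220 ± 0.0304 in all cells, and mouse 2 had 0.197 in myoid-like and 0.185 in all cells, so the ratio was lower in myoid-like cells in 2 of 3 mice. The filter that removed barcodes with over 10% mitochondrial transcripts dropped 17 cells and moved no share of a named cell group by more than its SD when it was lifted.

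The members were then compared between myoid-like cells and all other cells, each mouse giving 1 sum of UMIs for either side, by edgeR's quasi-likelihood test across 5870 genes. Of 88 members tested, 17 were called higher and 0 lower, against 6.88% of all genes tested called higher and 11.6% called lower. The median log2 fold change of the members was 0.49 and that of all genes tested was -0.18. The largest changes were of Cox6a2 and Cox8b, the muscle isoforms of complex IV, while the 15 others rose by 1.42 or less on the log2 scale. Both isoforms reached the cutoff of the filter on low counts, 33.2 CPM, in myoid-like cells and in no sum of the other cells, so the filter itself selected for a difference in them. Called members came from complex I (5 of 37 tested), complex II (1 of 4), complex III (3 of 8), complex IV (3 of 13) and complex V (5 of 14). None of 5 assembly factors and none of 7 mitochondrial members was called. With mice as blocks 20 members were called higher and 0 lower, where 6.95% and 11.2% of all genes were, and those added were Cox7a2, Cox8a and Uqcr11. DESeq2 also called 17 higher and 0 lower.

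Cox6a2 had 82, 27 and 97 UMIs in the myoid-like cells of mice 1, 2 and 3, and 9, 5 and 3 in all other cells. This was 2052, 1336 and 1181 CPM against 9.34, 9.60 and 2.06, with no overlap between the groups. The log2 fold change was 7.89 (SE 0.40, edgeR adjusted p = 1.22e-21, higher in 3 of 3 mice). UMIs of Cox6a2 were found in 31 myoid-like cells out of 75 and in 16 cells of other types, or 40.3 ± 9.33% against 0.729 ± 0.337% as means over mice. With every cell thinned to 500 UMIs these shares were 26.2 ± 12.6% and 0.288 ± 0.239%. Median UMIs per myoid-like cell were 1296, 864.5 and 2756.5, against 919.5, 857 and 1408 in all cells.

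Cox6a1, the general form, did not pass the test. Myoid-like cells of mice 1, 2 and 3 had 926, 693 and 706 CPM, beside 1253, 1176 and 989 in all others, lower in 3 of 3 mice, with a log2 fold change of -0.56 (SE 0.27, edgeR adjusted p = 0.156, range over alternatives 0.0516 to 0.311). Within the pair, Cox6a2 supplied 68.9%, 65.9% and 62.6% of the UMIs in myoid-like cells (exact binomial 95% intervals 59.8 to 77.1%, 49.4 to 79.9% and 54.5 to 70.2%). In all other cells it supplied 0.740%, 0.810% and 0.208%. Summed, the pair stood at 2298 ± 593 CPM in the myoid-like group, beside 1146 ± 140 elsewhere.

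Cox8b, the muscle form of the smallest complex IV subunit, had 15, 4 and 25 UMIs in myoid-like cells and 2, 0 and 5 in all others. At 375, 198 and 304 CPM against 2.08, 0 and 3.44, the groups did not overlap, and the log2 fold change was 6.91 (SE 0.55, edgeR adjusted p = 9.29e-15, higher in 3 of 3 mice). Unlike in the Cox6a pair, the general form stayed in the majority: Cox8a had 1126, 990 and 1047 CPM in myoid-like cells against 680, 665 and 690, with a log2 fold change of 0.63 (SE 0.26, edgeR adjusted p = 0.0869, and 0.0429 with mice as blocks). Cox8b thus gave 25.0%, 16.7% and 22.5% of the Cox8 UMIs in myoid-like cells, and 0.304%, 0% and 0.496% in the others (upper 95% limit for mouse 2 1.06%). Cox8b was seen in 21 myoid-like cells, 27.3 ± 6.41% over mice and 13.1 ± 4.73% after thinning to 500 UMIs, and in 7 cells of other types, 0.264 ± 0.286%.

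In the other pairs of complex IV the tissue form had at most 1 UMI in myoid-like cells. Cox7a1, also known as a heart and muscle subunit, had 0, 0 and 1 UMIs in myoid-like cells and 0, 4 and 7 in all others, while its partner Cox7a2 had 1103 ± 202 CPM in myoid-like cells, and Cox7a2l, which assists supercomplex formation, 305 ± 17.9. Cox7a1 was listed at 0 in the whole library of mouse 1. Cox6b2, a testis form of Cox6b1, had no UMI in myoid-like cells, where a count of 0 allows up to 21.1 CPM, and Cox6b1 had 1057 ± 167. Cox7b2, a form of Cox7b, had 4 UMIs in all cells, and Cox7b was among the called members. Of the genes for the c ring of complex V, Atp5g3 was called higher, while Atp5g1 stood at 294 ± 164 CPM in them, beside 182 ± 100 elsewhere (log2 fold change 0.50, SE 0.43, edgeR adjusted p = 0.478).

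**Figure D2:**
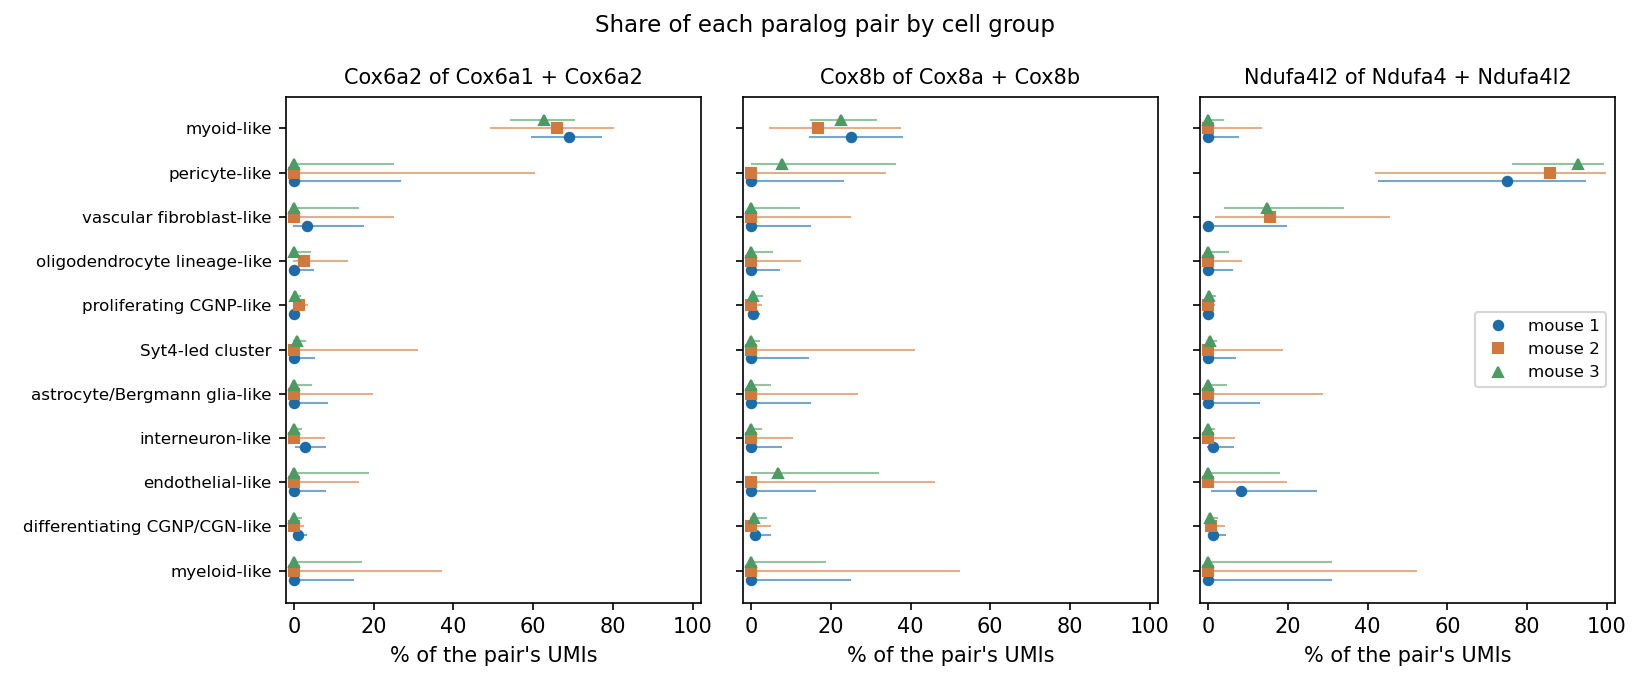
Share of the UMIs of each paralog pair that came from the tissue or hypoxia form, in percent, by cell group, for Cox6a2 (left), Cox8b (middle) and Ndufa4l2 (right). Points are mice and lines exact binomial 95% intervals, which cover counting error only; Cox6a2 lies between 62.6% and 68.9% in myoid-like cells and Ndufa4l2 between 75.0% and 92.9% in pericyte-like cells.

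Beyond the isoforms, complex I gave Ndufc2, an accessory subunit of the membrane arm, with 1551, 1484 and 1218 CPM in myoid-like cells against 507, 584 and 536. Its groups did not overlap, and its log2 fold change was 1.34 (SE 0.26, edgeR adjusted p = 8.02e-05). Ndufv1, which holds the site where NADH is oxidized, rose by 1.14 (SE 0.37, edgeR adjusted p = 0.0229) and Ndufs4, an accessory subunit of the NADH module, by 1.11 (SE 0.29, edgeR adjusted p = 0.00455). In complex II, Sdhd had 350, 247 and 317 CPM against 98.6, 142 and 116, with no overlap and a log2 fold change of 1.42 (SE 0.33, edgeR adjusted p = 0.00127). Sdhb of the same complex had a log2 fold change of -0.03 (SE 0.31, edgeR adjusted p = 0.969), so the 4 genes of complex II did not all pass.

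All 8 complex III genes had a fold change above 0 in myoid-like cells, with a median of 0.76 on the log2 scale, and 3 were called. Uqcr10 rose by 1.01 (SE 0.27, edgeR adjusted p = 0.00527), Uqcrb by 0.97 (SE 0.28, edgeR adjusted p = 0.00924) and Uqcrq by 0.95 (SE 0.27, edgeR adjusted p = 0.00799), all of them small supernumerary subunits. In complex V, Atp5b, the catalytic beta subunit, had 1476, 841 and 1413 CPM against 548, 517 and 659, a log2 fold change of 1.16 (SE 0.27, edgeR adjusted p = 0.00125). Its myoid-like values all lay above the others. Atp5f1, a subunit of the peripheral stalk, rose by 0.94 (SE 0.26, edgeR adjusted p = 0.00783), and Atp5o, Atp5k, Atp5g3, Ndufa11, Cox7b and Ndufc1 rose by 0.71 to 0.88.

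Most of these calls depended on having all 3 mice. Without mouse 1 only Cox6a2, Cox8b and Ndufc2 were called higher, without mouse 2 there were 12 calls and without mouse 3 there were 8. Without the filter on low counts 5 members were called: Cox6a2, Cox8b, Ndufc2, Sdhd and Atp5b. The shares of all genes called in these settings are not given, so the lower counts are not a result about the members alone. Leaving out Cox6a2 and Cox8b, the median log2 fold change of the 79 remaining nuclear members tested against all other cells was 0.54. Against CGNP/CGN-like cells alone, a reference chosen after the data were seen, 21 of 87 members were called higher and 0 lower, where 8.99% and 11.8% of the 4807 genes tested were.

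The 7 mitochondrial members tested had log2 fold changes from 0.21 for mt-Co1, the catalytic subunit of complex IV, to 0.43 for mt-Nd6, and none was called (lowest edgeR adjusted p = 0.326, for mt-Cytb, and 0 at an unadjusted p under 0.05). Over the alternatives mt-Co1 ranged from -0.01 to 0.32, and the other 6 stayed above 0. Their median was 0.36 beside 0.56 for the 81 nuclear members tested; that difference was not tested. mt-Cytb had 2002, 3909 and 2557 CPM in myoid-like cells against 1915, 2136 and 2041. The value of mouse 1 lay inside the range of the other cells, and those of mice 2 and 3 above it.

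**Figure D3:**
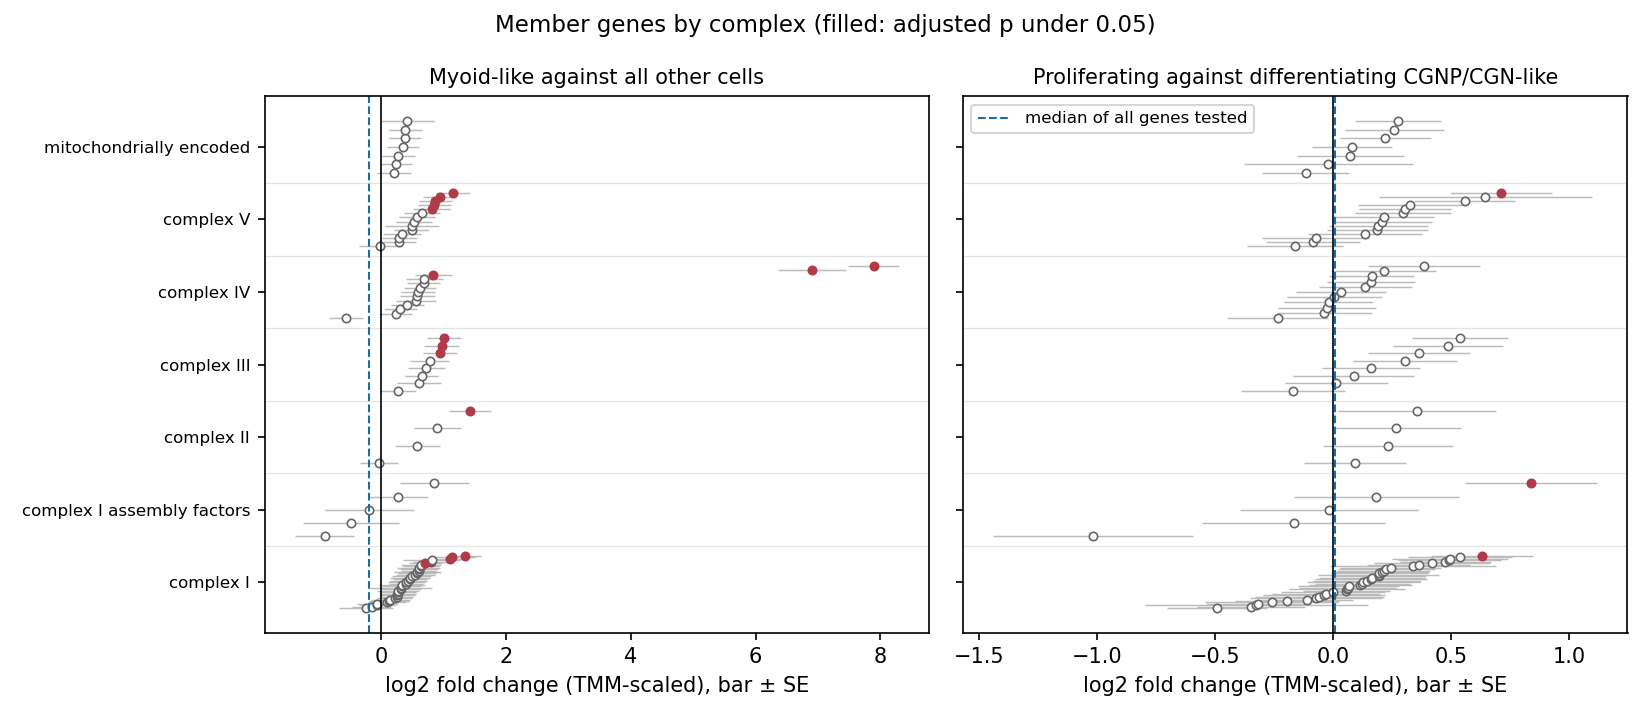
Log2 fold changes (TMM-scaled, horizontal bars ± SE) of the members by complex, in myoid-like cells against all others (left) and in proliferating against differentiating CGNP/CGN-like cells (right). Filled points passed an adjusted p of 0.05 and the dashed line is the median of all genes tested; on the left Cox6a2 and Cox8b stand at 7.89 and 6.91.

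Genes next to the respiratory chain were read in the same fit. Of all genes tested there, 6.88% were called higher and 11.6% lower. Of 13 citric acid cycle genes tested, 4 were called higher in myoid-like cells and 0 lower: Idh2 rose by 1.56, Sucla2 by 1.13, Suclg1 by 1.08 and Idh3a by 1.02 on the log2 scale. Of 11 glycolysis genes, 5 were called higher and 1 lower, led by Eno3 and Pgam2, the muscle forms of enolase and phosphoglycerate mutase, with log2 fold changes of 7.08 (SE 0.40) and 7.07 (SE 0.59). Eno3 had 55, 11 and 82 UMIs in myoid-like cells and 8, 1 and 13 in all others. Ldhb, the lactate dehydrogenase subunit of oxidative tissue, fell by 1.89 (SE 0.44, edgeR adjusted p = 0.00112). Ckm, the muscle creatine kinase, had a log2 fold change of 8.20 (SE 0.56), with 12, 6 and 36 UMIs against 2, 0 and 1. Eno3, Pgam2, Ckm and, of the genes that follow, Coa5 and Ucp2 reached the filter's cutoff in myoid-like cells only, as Cox6a2 and Cox8b did.

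Of 10 complex IV assembly genes tested, Cox17, the copper chaperone, rose by 1.31 and Coa5 by 1.88. Of 10 carriers, Ucp2, an uncoupling protein homolog, rose by 2.27, and Atpif1, the inhibitor of complex V when it runs in reverse, fell by 1.32 (SE 0.29, edgeR adjusted p = 0.000491), with 547 ± 133 CPM in myoid-like cells and 1443 ± 241 in the others. None of 3 biogenesis genes tested was called.

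In pericyte-like cells most UMIs of the Ndufa4 pair came from Ndufa4l2. Ndufa4l2 had 9, 6 and 26 UMIs in the 11, 6 and 11 pericyte-like cells and 5, 3 and 8 in all other cells, which is 1124, 1025 and 1702 CPM against 5.02, 5.61 and 5.26. The groups did not overlap, and the log2 fold change was 7.36 (SE 0.49, edgeR adjusted p = 4.12e-48). It reached the filter's cutoff, here 36.3 CPM, in pericyte-like cells only, so the filter selected for a difference in it. Ndufa4 had 3, 1 and 2 UMIs in pericyte-like cells, or 375, 171 and 131 CPM, against 897, 1122 and 1010. It fell by 2.89 on the log2 scale (SE 0.52, edgeR adjusted p = 2.20e-06, lower in 3 of 3 mice).

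Ndufa4l2 made up 75.0%, 85.7% and 92.9% of the pair's UMIs in pericyte-like cells (exact binomial 95% intervals 42.8 to 94.5%, 42.1 to 99.6% and 76.5 to 99.1%), and 0.557%, 0.498% and 0.518% in all other cells. It was seen in 13 of 28 pericyte-like cells, 44.4 ± 24.7% over mice and 35.4 ± 27.3% after thinning to 500 UMIs. The pair's sum was 1509 ± 318 CPM in pericyte-like cells and 1015 ± 113 in the others. Of the 57 UMIs of Ndufa4l2 in all cells, 41 were in pericyte-like cells, 6 in vascular fibroblast-like cells and 2 in endothelial-like cells. Myoid-like, astrocyte/Bergmann glia-like, oligodendrocyte lineage-like and myeloid-like cells had none. Against endothelial-like and vascular fibroblast-like cells alone, a reference chosen after the data were seen, Ndufa4l2 was higher by 4.45 (SE 0.50, edgeR adjusted p = 1.04e-08) and Ndufa4 fell by 1.92 (SE 0.55, edgeR adjusted p = 0.00897). Ndufa7, a complex I subunit, fell by 1.31 in that comparison (SE 0.49), just past the threshold at an edgeR adjusted p of 0.04999. These were the 3 calls among the 44 members tested there. Of the 358 genes that passed the filter, 9.78% were called higher and 12% lower. The filter's cutoff in CPM rises as the sums shrink, and each of these 3 genes reached it on a single side. Ndufa4l2 did so in pericyte-like cells, and Ndufa4 and Ndufa7 in the reference, so the filter selected for a difference in all 3.

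Over the 87 members tested in pericyte-like cells, 1 was called higher and 3 lower, against 3.1% and 7.49% of the 5234 genes tested. The median log2 fold change was -0.52 for the members and -0.90 for all genes, and with the scaling of DESeq2's size factors these were -0.28 and -0.67, so the members as a list lay above the median gene under both scalings while their raw share of UMIs was higher in 3 of 3 mice. Ndufa12, an accessory subunit of complex I, was called lower by 1.25 (SE 0.43, edgeR adjusted p = 0.0403, and 0.114 with mice as blocks), and its log2 fold change was 0.00 against endothelial-like and vascular fibroblast-like cells. Ndufs5, another complex I subunit, had no UMI in pericyte-like cells and 38, 90 and 258 in all others (edgeR adjusted p = 0.0294, and 0.132 with mice as blocks), and it reached the filter's cutoff in the others only. A count of 0 in the 29141 UMIs of pericyte-like cells allows up to 103 CPM, beside 125 ± 75.5 in the others, so no fold is given. With mice as blocks Ndufa4l2 was called higher and Ndufa4 lower, where 2.33% and 3.63% of all genes were.

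Cox4i2 was sparse, with 27 UMIs in all cells, of which 16 were in pericyte-like cells. It had 3, 0 and 13 UMIs there, or 37.5%, 0% and 35.1% of the Cox4i1 and Cox4i2 pair, beside 1, 0 and 10 UMIs in all other cells. In mouse 2 the whole library listed it at 0. It did not pass the filter on low counts. Without that filter it was called higher in pericyte-like cells (log2 fold change 6.15, SE 0.71, edgeR adjusted p = 2.20e-15). With mouse 2 left out it was also called with the filter. It then passed the filter through pericyte-like cells only, so the filter selected for a difference in it.

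Pericyte-like cells also carried summed markers of other types, at 513 to 3076 CPM for 9 vascular fibroblast markers (3 of them at 0), 342 to 749 for 10 endothelial markers (4 at 0, Cldn5 among them) and 1748 to 5297 for 18 proliferating CGNP markers (6 at 0, Atoh1 among them). In myoid-like cells the proliferating CGNP markers summed to 396 to 682, the 10 endothelial markers to 609 to 1138 (7 at 0, Cldn5 and Pecam1 among them) and the 9 pericyte markers to 0 to 50.0, with 7 of those at 0. Their part in these results was not tested. Ppargc1b, a coactivator of mitochondrial biogenesis, had 2, 2 and 1 UMIs in pericyte-like cells against 5, 1 and 9 in the others. It reached the filter's cutoff in pericyte-like cells only, and no fold is given. Of the 43 pathway genes tested there, the 3 others called were lower. Slc25a4, an adenine nucleotide carrier, fell by 1.08 on the log2 scale, with 3, 2 and 26 UMIs in pericyte-like cells. These were 375, 342 and 1702 CPM beside 1396, 1355 and 1467 in the other cells, so it was lower in mice 1 and 2 and higher in mouse 3. Eno1 and Ckb fell by 2.64 and 2.88, with 1, 0 and 2 and 4, 0 and 0 UMIs.

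Within the Atoh1 lineage, proliferating CGNP-like cells were compared with differentiating CGNP/CGN-like cells. Of 86 members tested 3 were called higher and 0 lower (edgeR), against 13.9% and 14.3% of the 5000 genes tested. Atp5d, the delta subunit of complex V, had 346, 392 and 316 CPM in proliferating and 248, 198 and 194 in differentiating cells, with a log2 fold change of 0.71 (SE 0.22, edgeR adjusted p = 0.0175). Ndufa12 had 908, 1181 and 755 against 700, 680 and 460, a log2 fold change of 0.63 (SE 0.22, edgeR adjusted p = 0.0329). Ndufaf2, a complex I assembly factor, had 162, 254 and 149 against 80.7, 119 and 111, a log2 fold change of 0.84 (SE 0.28, edgeR adjusted p = 0.0295). In all 3 genes the groups did not overlap. At an unadjusted p under 0.05, 8 members were higher and 2 lower. Over all genes the shares at that threshold are at least the 13.9% and 14.3% above, so these counts lie below the background.

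The sums of either side shared a library in each mouse, and with mice as blocks 17 members were called higher and 1 lower, where 19.7% and 19.4% of all genes were. The 14 genes added were spread over complexes I, III, IV and V and had small changes, such as Uqcrh, the hinge protein of complex III, with 0.53 (SE 0.14, edgeR adjusted p = 0.00190) and Atp5e with 0.54 (SE 0.13, edgeR adjusted p = 0.000389). mt-Nd1 was the 1 mitochondrial member among them, with 0.28 (SE 0.10, edgeR adjusted p = 0.0252). Ndufa1, a small subunit of the complex I membrane arm, was the 1 called lower, by 0.49 (SE 0.15, edgeR adjusted p = 0.00522), and had 413, 358 and 293 CPM against 420, 585 and 496.

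The members' median was 0.16 beside 0.01 for all genes. Without mouse 1, and without mouse 2, no member was called higher.

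Of the energy genes tested beside the members, those called between these cells were 2 of 2 biogenesis genes, 1 of 9 carriers, 2 of 13 citric acid cycle genes and 3 of 8 glycolysis genes higher, 1 glycolysis gene and 1 creatine kinase lower, and 0 of 8 complex IV assembly genes, where 13.9% of all genes tested were called higher and 14.3% lower. Tfam, which packages and transcribes mitochondrial DNA, was higher in proliferating cells by 1.42 on the log2 scale (SE 0.36, edgeR adjusted p = 0.00488), with 109 ± 9.57 CPM against 36.8 ± 18.7, and Gabpa by 1.21 (SE 0.41, edgeR adjusted p = 0.0339). They were the 2 biogenesis genes that could be tested of 12 listed, and Gabpa, like Suclg2, reached the filter's cutoff in proliferating cells only. Slc25a5, the adenine nucleotide carrier of dividing cells, rose by 1.08, and Ldha, Idh2, Suclg2, Eno1 and Pkm by 0.79 to 1.32. Ckb, the brain creatine kinase, fell by 1.63 (SE 0.23, edgeR adjusted p = 2.19e-05), from 1073 ± 216 in differentiating to 347 ± 106 in proliferating cells, and Ldhb fell by 0.61.

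CGNP/CGN-like cells as a whole were compared with cells outside the Atoh1 lineage. Myoid-like cells, which the authors infer to lie within that lineage, and the unnamed clusters were on neither side. Called was 1 of 88 members, Ndufa4l2. With 2, 1 and 2 UMIs in CGNP/CGN-like cells and 12, 8 and 30 outside, it fell by 3.97 (SE 0.50, edgeR adjusted p = 1.46e-05). It reached the filter's cutoff, here 23.6 CPM, outside the lineage only, so the filter selected for a difference in it. Of those 50 UMIs outside the lineage, 41 came from the pericyte-like cells described above. The background was 7.42% of 7224 genes called higher and 11.4% called lower. The medians of the members and of all genes were 0.02 and 0.01. With mice as blocks 1 member was called higher (Ndufc1, 0.29) and 5 lower, which besides Ndufa4l2 were Uqcrb, Ndufv3, Ndufa13 and Cox6c, each by 0.44 or less, where 13.2% and 15.4% of all genes were called.

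Interneuron-like cells, which lie outside the lineage, were also compared with differentiating CGNP/CGN-like cells. None of 83 members was called by edgeR in either direction or by DESeq2 (background 2.71% higher and 4% lower of 3548 genes, and 4.26% and 6.14% with mice as blocks, where again 0 members were called), and at an unadjusted p under 0.05 there was 1, Ndufa8, with 163 ± 40.3 CPM against 278 ± 74.0 (edgeR adjusted p = 0.140). The median log2 fold change was -0.04 for the members and 0.00 for all genes. Of the lists beside the members, Slc25a5 alone was called, higher by 1.52 (SE 0.21, edgeR adjusted p = 5.56e-06).

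A few members differed between the mice. Of the 87 members with at least 100 UMIs in all cells, 74 had a highest mouse within 1.5 times the lowest, and 3 exceeded 2 times: Ndufs5, Atp5g1 and mt-Nd6. Ndufs5 had 37.9, 166 and 168 CPM in mice 1, 2 and 3, Atp5g1 had 228, 261 and 70.3, and mt-Nd6, the subunit read from the opposite strand of mitochondrial DNA, had 163, 68.4 and 123. The odd mouse was a different one in each gene. For scale, Atp5g3, which encodes the same mature c subunit as Atp5g1, had 283, 403 and 306.

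mt-Nd3 was listed at 0 in mice 1 and 2 and had 38 UMIs in mouse 3, in 33 cells of 9 groups. In each library, every gene above 0 was seen in at least 3 barcodes and none in 1 or 2, so a gene listed at 0 in a whole library may have had up to 2 barcodes with it before deposit. This holds for Cox4i2 and mt-Nd3 and for 4 other members, Cox7a1, Cox7b2, Atp5l2 and the pseudogene Atp5l-ps1. Of these 6, a call is given above for Cox4i2. Reads from near-identical nuclear copies of the mitochondrial genes and from processed pseudogenes of the nuclear ones may have been split or discarded in counting, so levels of the members are uncertain to that extent.

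**Figure D4:**
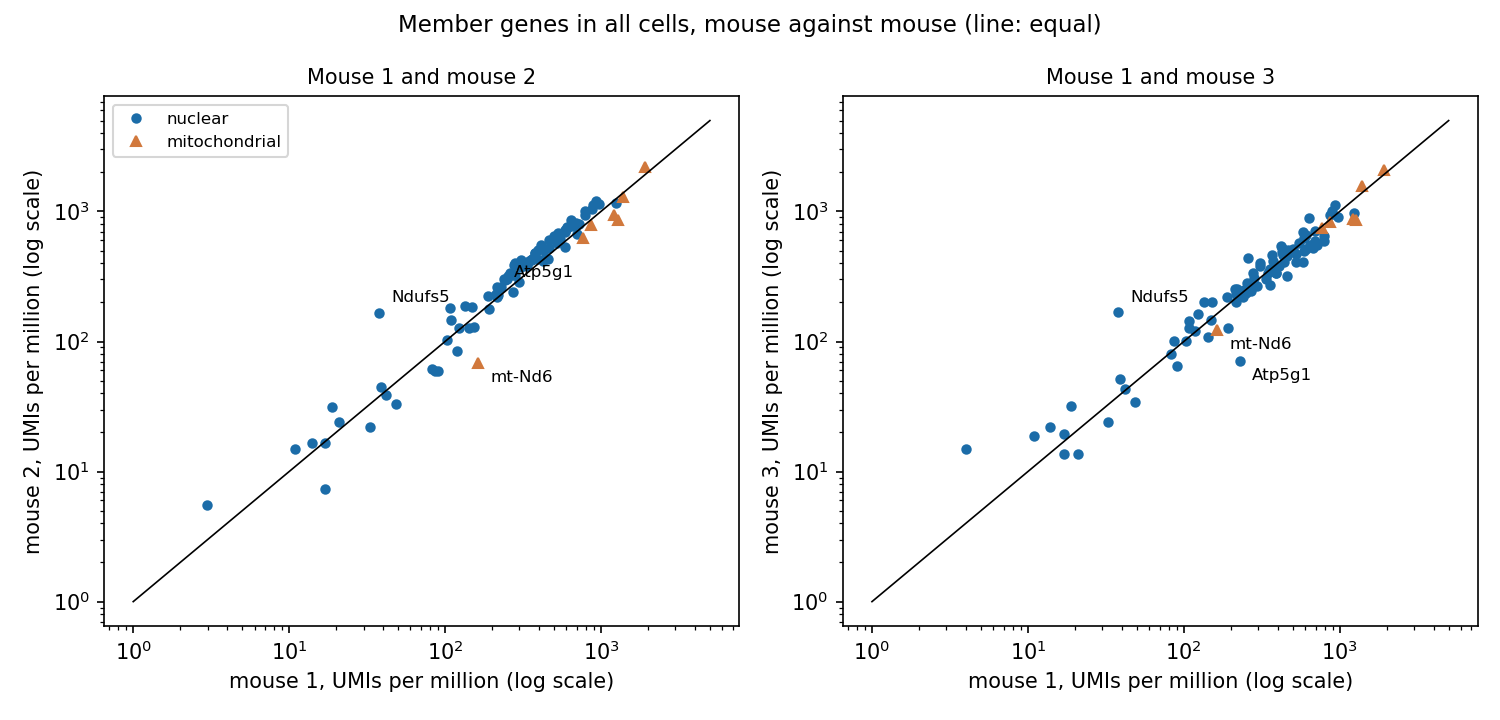
CPM of each member in all cells of mouse 1 against mouse 2 (left) and mouse 3 (right), on log axes, with nuclear members as blue circles and mitochondrial members as orange triangles; members at 0 in either mouse are not drawn. Most points follow the line of equality, while Ndufs5 (37.9 in mouse 1 against 166 and 168) and Atp5g1 (70.3 in mouse 3) lie off it.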

How the data were processed

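The authors aligned Drop-seq reads (STAR and mm10 are named in the submitters' processing notes, without versions) and deposited unnormalized UMI counts, genes by barcodes, of 3 mice (1401, 936 and 1144 barcodes; 1247761, 711290 and 1734000 UMIs). Cells were kept with at least 500 UMIs, 200 genes, at most 4 SD above the median of either per mouse and at most 10% mitochondrial UMIs, leaving 2373. Pairs of mice differed beyond sampling noise (chi-square per degree of freedom 2.74 to 5.27). Clustering (Seurat 5.3.0, sctransform 0.4.2, 3000 variable genes, 15 components, resolution 0.8) left out 185 genes: the members, the energy lists beside them and all mitochondrial genes. Clusters were named by at least 3 fixed markers, unless another list had more genes than that list among the 10 leading genes, a rule set after the clusters were seen; no doublet caller was run, and 1 cluster is not reported here on its own. They were still drawn from other genes of the same cells, so p-values describe these clusters. Sums of UMIs over the cells of a group in each mouse entered edgeR 4.0.16 (TMM, filterByExpr, Benjamini-Hochberg over all genes tested; R 4.3.3); standard errors are the fold change over the root of F. Simulated counts served to check the script. Both sums of a mouse share an animal, so mice as blocks were an alternative (correlations of their deviations across genes 0.0379 to 0.337). Shares have exact binomial 95% intervals and a count of 0 a limit of 3 counts, for counting error only. The members and lists were chosen with earlier results of these data known. Named were all mitochondrial members, the paralog pairs, up to 8 called members a direction and the 3 most abundant genes of each complex, as far as listed; the other genes named were chosen after their values were seen. The mice are separate animals.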

Additional observations from a re-analysis of the deposited data

Results flagged for a closer look

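The marker-like isoforms also appeared in the 1108 barcodes that the filters on cells removed, which no comparison used: 45 UMIs of Cox6a2 in 12 barcodes, 12 of Cox8b in 6 and 14 of Ndufa4l2 in 9. Of these barcodes, 1056 had under 500 UMIs and 52 had more, and the 52 held 5 of the 12 barcodes with Cox6a2, 3 of the 6 with Cox8b and 4 of the 9 with Ndufa4l2. Which cells these were was not determined.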

How the results depend on the processing

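The nuclear and mitochondrial shares of all named cell groups moved by less than their SD under every alternative run. Call counts moved more, and apart from the block the shares of all genes called under these alternatives are not given. In myoid-like cells, members called higher were 5 without the filter on low counts and 3 to 12 when 1 mouse was left out, beside 17. In proliferating cells they were 5 without the filter, 17 with mice as a replicate block and 0 to 2 with a mouse left out, beside 3, and members called lower were 1 with the block, 1 at a 20% mitochondrial limit and 1 with no such limit, beside 0. For the Atoh1 lineage, 1 was higher with the block, beside 0, and members lower were 2 without the filter, 5 with the block and 1 to 2 with a mouse left out, beside 1. In pericyte-like cells, members higher were 2 without the filter and 1 to 2 with a mouse left out, beside 1, and members lower were 10 without the filter, 1 each with RLE scaling, DESeq2 and the block, and 1 to 3 with a mouse left out, beside 3. Thinning to 500 UMIs lowered the shares of cells with Cox6a2 and Cox8b to 26.2% and 13.1%. The block changed no other call beyond those given. The cause was not tested. Pericyte-like cells, with 29141 UMIs, limit every value given for them.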
